A study of Saccharomyces cerevisiae with 24 samples.

Results

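This report concerns mid S-phase in budding yeast (Saccharomyces cerevisiae), sampled 20 and 25 min after release from G1. The 4 samples are 1 library each of the strains sml1Δ and sml1Δ SSDDCS at these times, chosen from the titles among 24 samples in all. Cells of both strains were arrested in G1 with the pheromone alpha factor, galactose was added during the arrest, and the cells were released into medium with galactose. DNA was sequenced, and the value of each 1 kb bin is its reads over those of the same strain in G1, scaled by the authors to the mean copy number seen by flow cytometry.

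Both are MATa strains of the W303 background with the marker alleles leu2-3, 112, trp1-1, his3-11, 15, ura3-1 and ade2-1, and both carry can1-100 and rad5-535. Both lack SML1, whose product holds back ribonucleotide reductase and so limits the supply of dNTPs. The deletion is marked with URA3 in sml1Δ and with HphNT in the SSDDCS strain per the labels, while the study's strain list gives HphMX for the latter. The SSDDCS strain also has 3 insertions, each with a bidirectional GAL1-10 promoter that drives 2 genes: Sld7 and Cdc45 at leu2, SLD3-A and Dbf4-A at his3, and Sld2 and Dpb11 at trp1. The control received the same galactose and carries none of these insertions. The wild-type background without the SML1 deletion, and SSDDCS cells without galactose, are not among these samples.

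Chromosomes are copied from many origins of replication. In G1 the helicase is loaded at origins, where the origin recognition complex binds the ARS consensus sequence, and in S-phase initiation factors turn the loaded helicases into pairs of moving forks. The kinase DDK, whose regulatory subunit is Dbf4, phosphorylates the loaded helicase, and Sld3, Sld7 and Cdc45 are then recruited. Cyclin-dependent kinase phosphorylates both Sld3 and Sld2, which lets them interact with Dpb11. Several of these factors are scarce, so that origins are normally used in a sequence. Origins near centromeres are among the early ones, and many of those near chromosome ends are late. In a copy number profile of cells in S-phase an active origin lies at a peak, and the places where forks from neighbouring origins meet lie in valleys.

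Levels are given on 2 scales. "Copies" is the deposited ratio, which runs from about 1 to about 2 but is not capped. "Relative copy number" is that ratio divided by the bulk factor of its library, so that the genome mean is about 1. The range is not made equal by this. A fully copied bin lies at about 2 divided by the bulk factor, which is lower in the library that copied more. The top of a relative profile and its spread therefore still depend on the extent of replication. The bulk factor at 20 min was 1.366 in sml1Δ and 1.484 in SSDDCS, which means that 36.6% and 48.4% of the genome had been copied. At 25 min it was 1.599 and 1.662, or 59.9% and 66.2%. The strains were therefore compared at the same time but not at the same extent of replication, and the bulk factor has no error in the tables. Each profile was smoothed by averaging over 9 neighbouring bins. There was 1 library per strain and time, and whether the cultures were handled as 1 experiment is not given in the sources used here, so no test of the strains was possible and no p-values are given. The measures of spread used are the noise between neighbouring bins and the SD over the 16 chromosomes. The chromosomes of a library share its culture and bulk factor, so they are not replicates of a strain. Counts of chromosomes in copies also carry the difference in bulk factor. The noise between bins was 4.22% and 5.02% of the mean per bin at 20 min, and 4.0% and 5.36% at 25 min, in sml1Δ and SSDDCS. After smoothing, the noise of a difference between strains was 0.0219 at 20 min and 0.0223 at 25 min in relative copy number (1 SD).

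At 20 min the SSDDCS library was above the control in most of the genome, and the percentiles of the distributions, which do not compare the same bins, were closest at the low end. The 25th, 50th and 75th percentiles of bins lay at 1.29, 1.35 and 1.44 copies in sml1Δ, and at 1.38, 1.51 and 1.60 copies in SSDDCS. The 10th percentile was 1.24 against 1.27 copies, and the 99th was 1.64 against 1.71 copies. Bins at or above 1.5 copies made up 15.2% of the control profile and 53.1% of the SSDDCS profile. Bins under 1.25 copies made up 13.0% and 7.38%.

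At 25 min the distributions crossed. The 25th percentile was 1.45 copies in sml1Δ and 1.58 copies in SSDDCS, while the 90th percentile was 1.87 and 1.84 copies, and the 99th was 1.96 and 1.93 copies. SSDDCS thus had fewer bins at low and at very high copy number. The lowest bins did not follow the quartiles, since the 1st percentile was 1.20 copies in sml1Δ and 1.19 copies in SSDDCS. In the control 67.3% of bins had reached 1.5 copies and 27.4% had reached 1.75, against 84.3% and 35.4% in SSDDCS.

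**Figure D1:**
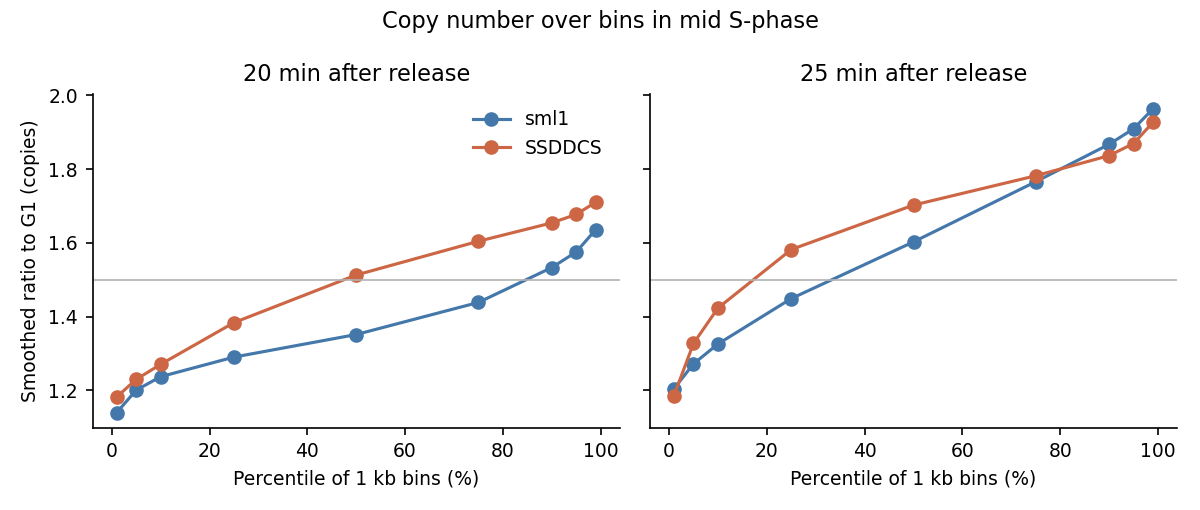
Percentiles of the smoothed ratio over 1 kb bins (x axis, percent of bins; y axis, copies) at 20 min (left) and 25 min (right), with 1 library per line and the grey line at 1.5 copies. At 20 min the SSDDCS line lies above sml1 at every percentile plotted, and at 25 min it lies below sml1 at the 1st, 90th, 95th and 99th.

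The spread of the relative profile was larger in SSDDCS at 20 min and smaller at 25 min. At 20 min sml1Δ had an SD over bins of 8.23% of the mean and SSDDCS one of 9.53%, and SSDDCS was the larger on 12 of 16 chromosomes. That difference of 1.30 percentage points was below its SD over chromosomes (1.91), and it turned over at equal bulk replication, where sml1Δ had 9.95% and SSDDCS 9.53%. At 25 min the SD was 12.4% and 9.83%, and SSDDCS was the smaller on 16 of 16 chromosomes. In sml1Δ the SD grew between the time points, and in SSDDCS it moved by less than 1 percentage point. The smoothed relative profiles at 20 and 25 min correlated at r = 0.767 in sml1Δ and at r = 0.897 in SSDDCS over bins. Between strains r was 0.754 at 20 min and 0.648 at 25 min. These correlations are descriptions over 11350 to 11361 bins that overlap through the smoothing, and the profiles of a strain also share 1 G1 library.

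Peaks were local maxima of the smoothed relative profile with a prominence of at least 0.05, which is the height above the higher of the valleys that bound the peak. At 20 min there were 197 peaks in sml1Δ and 223 in SSDDCS, and at 25 min there were 166 and 181. The same rule also called peaks in profiles that were nearly flat. At 5 min, when 1% to 2% of the genome had been copied, it gave 77 peaks in sml1Δ and 177 in SSDDCS, and at 60 min it gave 146 and 165. In those libraries between 15.8% and 24.2% of the peaks lay within 3 kb of an annotated origin, and 18.4% of all bins do. At 20 min 73.6% of the sml1Δ peaks and 74.0% of the SSDDCS peaks lay within 3 kb of an origin, and at 25 min 66.9% and 65.7% did.

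A stricter prominence of 0.1 was added after the data had been seen. It left between 0 and 5 peaks per library at 5 and 60 min. At 20 min it gave 138 peaks in sml1Δ and 174 in SSDDCS, or 12.2 and 15.3 per Mb of bins, with more in SSDDCS on 15 of 16 chromosomes. Chromosome I was the exception, with 2 peaks in sml1Δ and 1 in SSDDCS. At 25 min the order turned, with 128 peaks in sml1Δ and 116 in SSDDCS, fewer in SSDDCS on 9 chromosomes, more on 1 and equal on 6. With the limit of 0.05 SSDDCS had more peaks at both times.

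**Figure D2:**
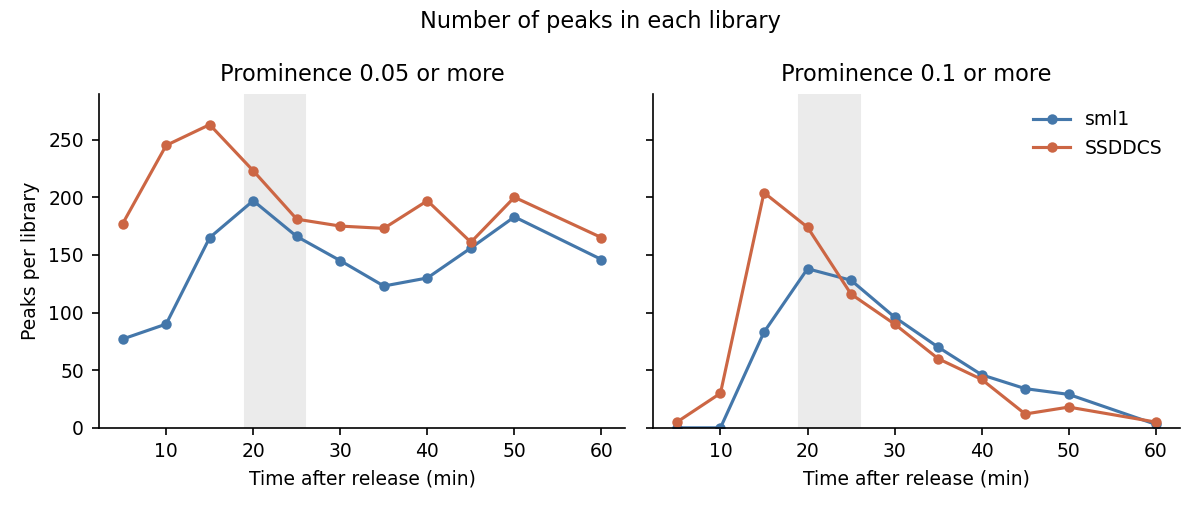
Number of peaks in each of the 22 libraries (y axis) against time after release in min (x axis), with a minimum prominence of 0.05 (left) and 0.1 (right) and mid S-phase shaded. With the limit of 0.05 the 60 min libraries still give 146 and 165 peaks, and with 0.1 the lines cross between 20 and 25 min.

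Peaks in SSDDCS were taller at 20 min and of nearly the same height as in the control at 25 min. The median height at 20 min was 1.49 copies in sml1Δ (quartiles 1.42 and 1.57) and 1.66 copies in SSDDCS (quartiles 1.63 and 1.70), and the SSDDCS median was higher on 16 of 16 chromosomes. At 25 min it was 1.80 copies (quartiles 1.63 and 1.88) and 1.83 copies (quartiles 1.79 and 1.88), higher in SSDDCS on 11 chromosomes and lower on 5. Peak heights varied less among themselves in SSDDCS at both times, as these quartiles show. In relative copy number sml1Δ peaks had a median height of 1.09 and SSDDCS peaks one of 1.12 at 20 min, and of 1.12 and 1.10 at 25 min. The upper quartile was lower in SSDDCS at both times, at 1.15 against 1.14 and at 1.18 against 1.13. The spread of the strain difference over chromosomes (SD 0.0408 at 20 min and 0.0602 at 25 min) was larger than the difference in the median relative height at either time.

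Width was read midway between a peak's top and its base. At 20 min the median width was 22.9 kb in sml1Δ and 23.6 kb in SSDDCS, wider in SSDDCS on 9 chromosomes and narrower on 7, a difference far below the spread over chromosomes (SD 7.53 kb). The 25 min median was 35.2 kb in sml1Δ and 24.6 kb in SSDDCS, and SSDDCS was the narrower on 15 of 16 chromosomes. Over all called peaks the control median was therefore wider at 25 than at 20 min. In SSDDCS those medians differed by about 1 kb. With the prominence limit of 0.1 the median width at 20 min was 26.1 kb in sml1Δ and 27.9 kb in SSDDCS. At 25 min it was 46.4 and 39.3 kb, and SSDDCS was narrower on 11 chromosomes and wider on 5. With this stricter limit the SSDDCS median was thus also wider at 25 than at 20 min. Prominence followed the same order as the spread of the profile. The medians for sml1Δ and SSDDCS were 0.149 and 0.191 at 20 min, and 0.192 and 0.128 at 25 min.

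Valleys, called by the same rule on the inverted profile, lay at a higher copy number in SSDDCS at both times. They numbered 197 in sml1Δ and 219 in SSDDCS in the 20 min libraries, and 166 and 184 at 25 min. The median level at 20 min was 1.25 copies in sml1Δ and 1.34 copies in SSDDCS, and at 25 min it was 1.36 and 1.56 copies. SSDDCS was the higher on 16 of 16 chromosomes at each time. In relative copy number the order was less regular. The medians at 20 min were 0.916 and 0.901, with 8 chromosomes in each direction, and the valleys of prominence 0.1 or more were at 0.898 and 0.859, with SSDDCS lower on 15 of 16. Those at 25 min were 0.848 and 0.939, with SSDDCS higher on 15 of 16, and with the stricter limit 0.820 and 0.858, higher on 12.

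The drop from the flanking peaks to a valley was larger in SSDDCS at 20 min and smaller at 25 min. Its median was 0.229 copies in sml1Δ and 0.315 copies in SSDDCS at 20 min, and 0.338 and 0.264 copies at 25 min. Valleys in SSDDCS were at the same time spread over a wider range of levels than in the control at 20 min, with quartiles of 1.23 and 1.46 copies against 1.20 and 1.29. Few valleys lay at an origin, 1.52% and 1.83% at 20 min and 0.602% and 1.63% at 25 min.

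**Figure D3:**
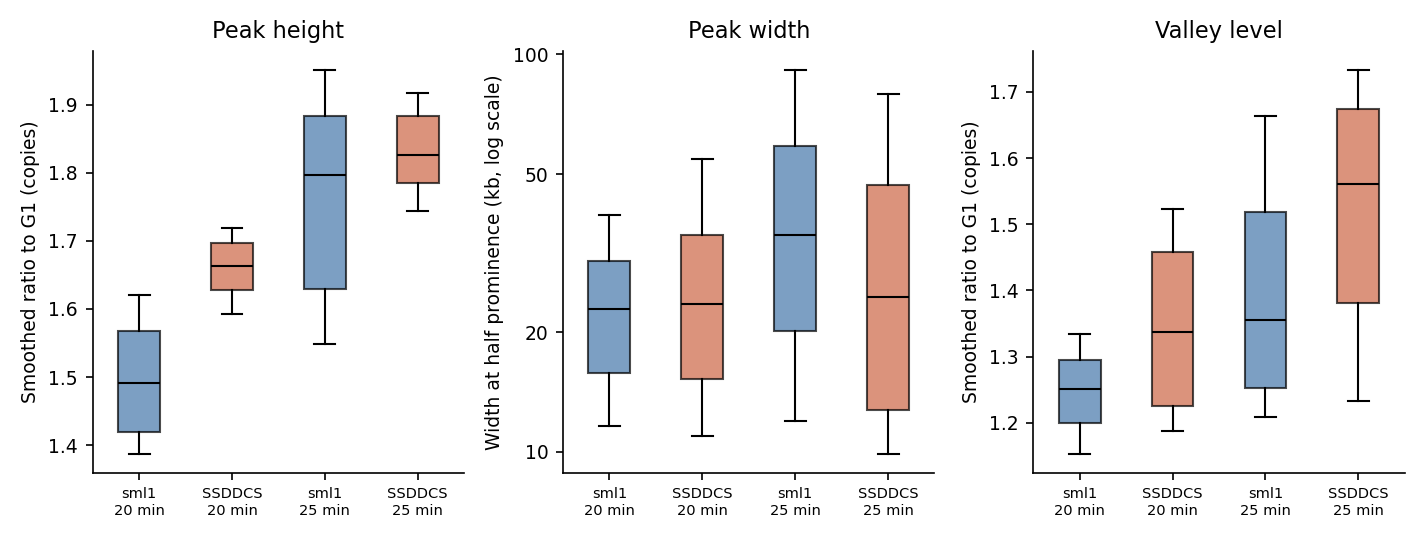
Peak height in copies, peak width in kb (log axis) and valley level in copies in the 4 libraries. Boxes span the quartiles over peaks or valleys, the line is the median and whiskers reach the 10th and 90th percentiles; median valleys are at 1.25 and 1.36 copies in sml1 and at 1.34 and 1.56 copies in SSDDCS at 20 and 25 min, and median widths at 22.9 and 35.2 kb in sml1 and 23.6 and 24.6 kb in SSDDCS.

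The deepest valleys were about equally deep in both strains at 25 min, and they were in part at the same places. In sml1Δ the lowest 3 were on chromosome X at 497001 to 498000, over PET191 and RAD26 (1.109 copies), on chromosome XII at 189001 to 190000, in UBR2 (1.127 copies), and on chromosome II at 448001 to 449000, in SIF2 (1.133 copies). The SSDDCS library was at 1.155, 1.178 and 1.272 copies in these bins. In relative copy number the strains were level at the first (0.694 and 0.695) and the second (0.705 and 0.709). In SSDDCS the lowest 3 were on chromosome IV at 968001 to 969000, over the peroxisomal catalase gene CTA1, on chromosome XIII at 326001 to 327000, and on chromosome XII at 183001 to 184000, over YEH2 and IRC25. Each of these was at 1.108 copies, against 1.201, 1.167 and 1.270 copies in sml1Δ. At 20 min the same bins had been higher in SSDDCS, at 1.260, 1.224 and 1.218 copies. Of the lowest sml1Δ bins, those on chromosomes X and II had also been higher in sml1Δ at 20 min, at 1.189 and 1.209 copies. The UBR2 bin was at 1.126 copies then. Where the ratio fell between the times, such low values cannot be read as exact copies. The cause of the falls was not tested. The chromosome XII valleys of the strains were 6 kb apart. All 6 lay 26.7 kb or more from the nearest annotated origin.

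At 20 min the lowest valleys of sml1Δ were on chromosome VII at 453001 to 454000, in STT3 (1.054 copies), on chromosome X at 579001 to 580000, in BNA2 (1.072 copies), and on chromosome IX at 382001 to 383000, near the RNA gene RPR2 (1.088 copies). SSDDCS was at 1.167, 1.162 and 1.180 copies there. By 25 min the order in these 3 bins had turned, with 1.499, 1.348 and 1.626 copies in sml1Δ and 1.285, 1.203 and 1.422 copies in SSDDCS. The lowest valleys of SSDDCS at 20 min were on chromosome IV at 375001 to 376000, over MTF2 and PRP11, on chromosome XV at 821001 to 822000, in PNT1, and on chromosome VII at 1029001 to 1030000, in YTA7. They were at 1.125, 1.125 and 1.139 copies, below the 1.174, 1.275 and 1.349 copies of sml1Δ. These sites were chosen as minima of SSDDCS. At 25 min they were at 1.239, 1.223 and 1.295 copies in sml1Δ and at 1.190, 1.153 and 1.323 copies in SSDDCS. At the YTA7 site SSDDCS was no longer the lower, but the gap was below the noise of a difference (0.0366 copies). There and in PNT1 the sml1Δ ratio was lower at 25 than at 20 min. The cause of that fall was not tested.

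Late-copied DNA was also counted as runs of bins under 1.25 copies. At 20 min there were 1479 such bins in 145 runs in sml1Δ and 839 bins in 89 runs in SSDDCS. At 25 min there were 369 bins in 41 runs on 11 chromosomes in sml1Δ, and 275 bins in 23 runs on 7 chromosomes in SSDDCS. The longest run at 25 min was 24 kb in sml1Δ and 29 kb in SSDDCS. The lists of 25 min shared 150 bins, which is 40.7% of the sml1Δ bins and 54.5% of the SSDDCS bins. Of all bins, 3.25% in sml1Δ and 2.42% in SSDDCS were under 1.25 copies at that time.

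The gain between 20 and 25 min was smaller in SSDDCS. The median bin gained 0.263 copies in sml1Δ and 0.183 copies in SSDDCS. At the peaks of 20 min the median gain was 0.268 and 0.144 copies, and in the valleys of 20 min it was 0.239 and 0.244 copies. In SSDDCS the valleys thus gained more than the peaks, whereas in sml1Δ the gains at peaks and valleys were close. The sites were called in the same 20 min libraries from which the gain starts. Noise there lowers the gain at peaks and raises it in valleys, and the SSDDCS library was the noisier. The SSDDCS peaks also began nearer to 2 copies, at a median of 1.66 copies against 1.49 in sml1Δ. The part of either in this contrast was not tested. Valleys are not the same as the lowest bins. In bins under 1.25 copies at 20 min the median gain was 0.241 copies in sml1Δ (1479 bins) and 0.116 copies in SSDDCS (839 bins). These bins were likewise chosen by their level at 20 min.

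Because SSDDCS had copied more of its genome at 20 min, it was also set against a control profile interpolated between 20 and 25 min to the same bulk factor of 1.484. At this matched extent the control had 178 peaks against 223 in SSDDCS, or 128 against 174 with a prominence of at least 0.1. The median peak height was 1.64 copies in the control and 1.66 copies in SSDDCS, and the median valley was at 1.31 and 1.34 copies. Peaks were 27.8 kb wide in the control and 23.6 kb wide in SSDDCS, the other way round from the comparison at equal time. Bins under 1.25 copies made up 2.72% in the control and 7.38% in SSDDCS, also the other way round. The interpolated profile is an average of 2 libraries, and its noise of 3.49% per bin was below the 5.02% of SSDDCS, so it is not the same kind of measurement. The part of that averaging in these differences was not tested.

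Differences were called where the strains were at least 0.1 apart. At 20 min 5.5% of bins were higher and 5.59% lower in SSDDCS in relative copy number. At 25 min 17.7% were higher and 15.7% lower. At 5 min no bin differed by this much, and at 60 min 1 bin was higher and 2 were lower. In copies, 59.5% of bins were higher and 0.996% lower in SSDDCS at 20 min, and 40.3% were higher and 15.1% lower at 25 min. A gain in relative copy number in some bins has to be met by a loss in others, so the directions balance by construction.

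Of 352 annotated origins, 321 had values in all 4 libraries. Their median was 1.455 copies in sml1Δ and 1.633 copies in SSDDCS at 20 min, and 1.730 and 1.784 copies at 25 min. Levels also varied less among origins in SSDDCS: the 10th and 90th percentiles of relative copy number were 0.970 and 1.164 in sml1Δ and 1.017 and 1.142 in SSDDCS at 20 min, and 0.946 and 1.201 against 1.005 and 1.131 at 25 min. In relative copy number 34 origins were higher and 9 lower at 20 min (10.6% and 2.8%, against 5.5% and 5.59% of bins). At 25 min 49 were higher and 50 lower (15.3% and 15.6%, near the shares of all bins). In copies 251 were higher and none of the 321 was lower at 20 min, and 132 were higher and 43 lower at 25 min. These are 78.2% and 0% of origins at 20 min, against 59.5% and 0.996% of bins, and 41.1% and 13.4% at 25 min, near the 40.3% and 15.1% of bins.

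The counts differed with the place of the origin on its chromosome. Of 39 measured origins within 25 kb of a centromere, none was higher and 8 were lower by 0.1 in relative copy number at 20 min, and none was higher and 28 were lower at 25 min. Their median was 1.58 copies in sml1Δ and 1.64 copies in SSDDCS at 20 min. At 25 min it was 1.93 and 1.79 copies, so that here the control was ahead in copies as well. The gap was at least 0.1 copies at 26 of 39 (66.7%), against 15.1% of bins. Of 41 measured origins within 50 kb of a chromosome end, 11 were higher and none lower at 20 min, and 24 were higher and 1 lower at 25 min. Their median was 1.37 copies in sml1Δ and 1.61 copies in SSDDCS at 20 min, and 1.59 and 1.82 copies at 25 min. In SSDDCS at 25 min the end-proximal origins were thus at a higher median than the centromere-proximal ones, the reverse of the order in sml1Δ. The other 241 origins lay between, with 23 higher and 1 lower at 20 min (9.54% and 0.415%, against 5.5% and 5.59% of bins) and 25 higher and 21 lower at 25 min (10.4% and 8.71%, against 17.7% and 15.7% of bins). The shares called lower at centromere-proximal origins were 20.5% and 71.8%, and those called higher at end-proximal origins 26.8% and 58.5%. The annotation lists 66 origins near ends, of which 25 had no value in at least 1 library, so that group is measured in part.

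The mean profile around origins was also read as the mean relative copy number at the origin bin minus that at 20 kb on either side. For end-proximal origins in sml1Δ this was -0.01 at 20 min and 0.01 at 25 min. It rests on few bins, with 40 origins measured at the origin bin and 24 and 31 at 20 kb, and the sml1Δ profile did rise on 1 side, from 0.93 at 13 kb to 0.99 at 3 kb before the origin at 25 min. In SSDDCS it was 0.06 and 0.04. For the other origins the difference was 0.09 and 0.08 in sml1Δ and 0.12 and 0.08 in SSDDCS. For centromere-proximal origins it was 0.08 and 0.04 in sml1Δ and 0.09 and 0.05 in SSDDCS.

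**Figure D4:**
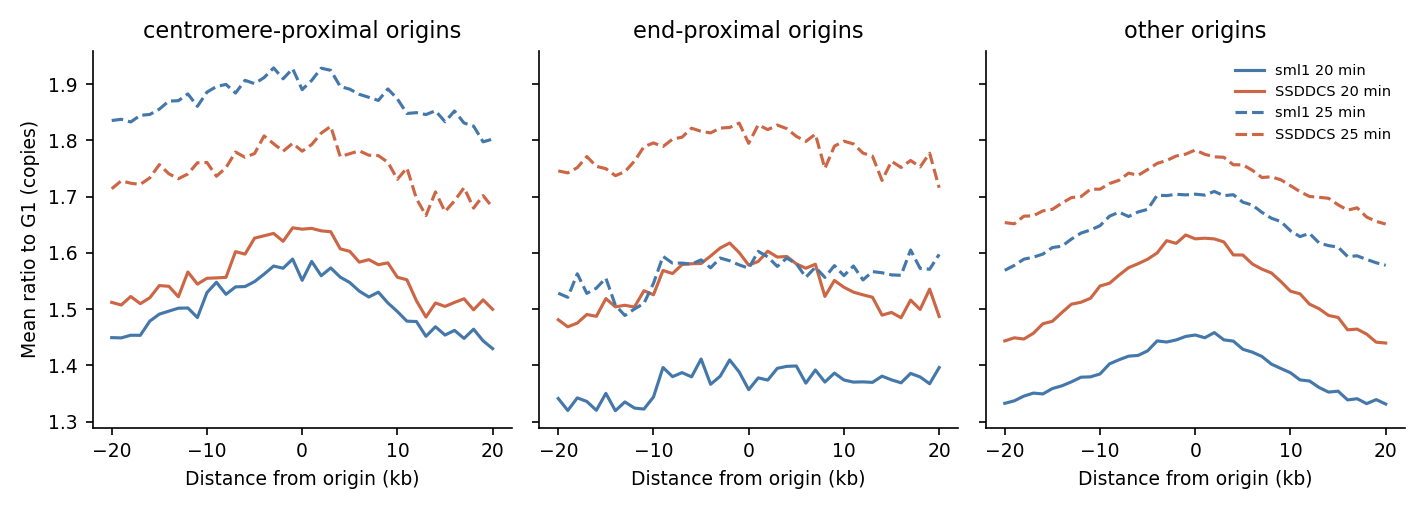
Mean ratio to G1 in copies (y axis) against distance from the origin in kb (x axis) for 39 centromere-proximal, 41 end-proximal and 241 other origins (fewer at distances without a value), with solid lines for 20 min and dashed lines for 25 min. The dashed SSDDCS line lies below the dashed sml1 line at centromere-proximal origins and above it in the other panels.

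The 16 centromeres, which direct chromosome segregation and are copied early in yeast, were lower in SSDDCS in relative copy number at both times. Each of 16 was below the control, though CEN12 by no more than the noise of a difference at 20 min. The relative scale has a lower top in SSDDCS, and its part in this was not tested. In copies at 20 min none of the 16 was higher or lower by 0.1 or more. The median was then 1.54 copies in sml1Δ and 1.55 copies in SSDDCS, although 59.5% of all bins were higher in SSDDCS by 0.1 copies or more. At 25 min the median was 1.90 copies in sml1Δ (1.82 to 1.97) and 1.75 copies in SSDDCS (1.65 to 1.89), lower in SSDDCS by 0.1 copies or more at 12 of 16, against 15.1% of bins. The largest gap at 25 min was at CEN3, with 1.578 and 1.518 copies at 20 min and 1.955 and 1.747 copies at 25 min in sml1Δ and SSDDCS. The smallest was at CEN12, with 1.508 and 1.606 copies at 20 min and 1.862 and 1.849 copies at 25 min. Against the control at equal bulk replication the centromere median was 1.72 copies in sml1Δ and 1.55 copies in SSDDCS. SSDDCS was lower there by 0.1 copies or more at 15 of 16. By the same limit 36 of 321 origins were lower and 95 higher. The share of all bins lower in copies was not taken for this comparison.

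The core histone genes, which encode the proteins that package new DNA and are expressed in S-phase, behaved like the centromeres. The 8 genes lie in 4 divergent pairs, so they are 4 places and not 8. At 20 min their median was 1.613 copies in sml1Δ and 1.617 copies in SSDDCS, and at 25 min it was 1.90 and 1.73 copies. At 25 min 7 of 8 were lower in SSDDCS by 0.1 copies or more, against 15.1% of bins. HHT1, a histone H3 gene on chromosome II, was at 1.650 and 1.633 copies at 20 min and at 1.963 and 1.709 copies at 25 min in sml1Δ and SSDDCS. HHT2, its copy on chromosome XIV, was at 1.379 and 1.392 copies at 20 min and at 1.826 and 1.624 copies at 25 min. HTA1, a histone H2A gene on chromosome IV, was the member below the limit, with 1.879 and 1.784 copies at 25 min. The pairs HTA2-HTB2 and HHT1-HHF1 lie on either side of CEN2, so these bins and the centromere list are not separate regions.

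The bins of the 6 factor genes, taken at the genes' own loci, had no common direction. Their median was 1.34 copies in sml1Δ and 1.45 copies in SSDDCS at 20 min, and 1.65 and 1.62 copies at 25 min. DBF4 was at 1.920 copies in sml1Δ and 1.763 copies in SSDDCS at 25 min. At that time, in the same order, SLD2 was at 1.509 and 1.614 copies, CDC45 at 1.643 and 1.564 copies, SLD3 at 1.665 and 1.629 copies and SLD7 at 1.853 and 1.861 copies. DPB11 stayed low in both strains, at 1.272 and 1.223 copies at 20 min and at 1.247 and 1.241 copies at 25 min. Extra copies of these genes at leu2, his3 and trp1 are also present in the G1 library of the SSDDCS strain, which is the denominator. Reads of those copies would be counted in the same bins in S-phase and in G1. The SSDDCS values of these bins are therefore not those of the native loci alone.

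NDT80, which encodes a meiotic transcription factor, was at 1.357 copies in sml1Δ and 1.649 copies in SSDDCS at 20 min, and at 1.555 and 1.749 copies at 25 min. It was higher in SSDDCS by at least 0.19 copies at each time. ARS818, on the same chromosome arm, was at 1.358 and 1.638 copies at 20 min and at 1.594 and 1.826 copies at 25 min. IME2, which encodes a meiotic kinase, was at 1.460 and 1.668 copies at 20 min and at 1.796 and 1.827 copies at 25 min, so its gap shrank to less than the noise of a difference (0.0366 copies). Its neighbours differed at 20 min. ARS1008 was a peak in sml1Δ and not in SSDDCS, at 1.563 and 1.622 copies, while ARS1009 was a peak in SSDDCS and not in sml1Δ, at 1.478 and 1.684 copies. ARS816 was not analysed here.

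The 8 origins with the largest rise in relative copy number at 20 min and the 8 with the largest fall, kept where the sign was the same at 25 min, show these places in detail. They were chosen for their difference, so their values are a description. The risers were ARS314, ARS313, ARS1022, ARS1507, ARS105, ARS104, ARS224 and ARS1020, with differences at 20 min of 0.14 to 0.20. ARS314, between PHO87 and BUD5 on chromosome III, was at 1.220 copies in sml1Δ and 1.625 copies in SSDDCS at 20 min, and at 1.568 and 1.821 copies at 25 min. It ranked 317 of 321 origins in sml1Δ and 182 in SSDDCS at 20 min. ARS313 lies about 3 kb away, at 1.198 and 1.599 copies at 20 min and 1.532 and 1.825 copies at 25 min, and shares most of its smoothing window. Neither was itself a peak at 20 min in either strain.

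ARS104 and ARS105 lie on the left arm of chromosome I, near its end, where FLO9 and GDH3 flank ARS104. ARS104 was at 1.373 and 1.711 copies at 20 min and 1.600 and 1.916 copies at 25 min in sml1Δ and SSDDCS. ARS105 was at 1.382 and 1.725 copies, then at 1.627 and 1.877 copies, and moved from rank 234 in sml1Δ to rank 8 in SSDDCS at 20 min. ARS1022, also near an end and between the cell wall genes DAN1 and DAN4 on chromosome X, was at 1.238 and 1.603 copies and then at 1.586 and 1.823 copies. ARS1507, in GAS4 on chromosome XV, and ARS224, between MRPL37 and SDH8 on chromosome II, were the risers that were peaks of prominence 0.1 or more in SSDDCS and no peak in sml1Δ at 20 min. ARS1020 was the riser whose difference closed by 25 min, from 0.14 to 0.01.

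The 8 with the largest fall were ARS1, ARS308, ARS1015, ARS901, ARS921, ARS108, ARS110 and ARS1309. All but ARS901 lie within 25 kb of a centromere, and ARS308 overlaps CEN3. Their differences in relative copy number at 20 min ran from -0.16 to -0.10. In copies only ARS1 and ARS308 were lower by more than the noise of a difference at 20 min (0.0314 copies), at 1.725 against 1.635 and at 1.578 against 1.518. The gap was larger at 25 min, with 1.940 copies in sml1Δ and 1.720 in SSDDCS at ARS1309, and 1.883 and 1.665 at ARS921. ARS110 was the least changed, at 1.933 and 1.920 copies.

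**Figure D5:**
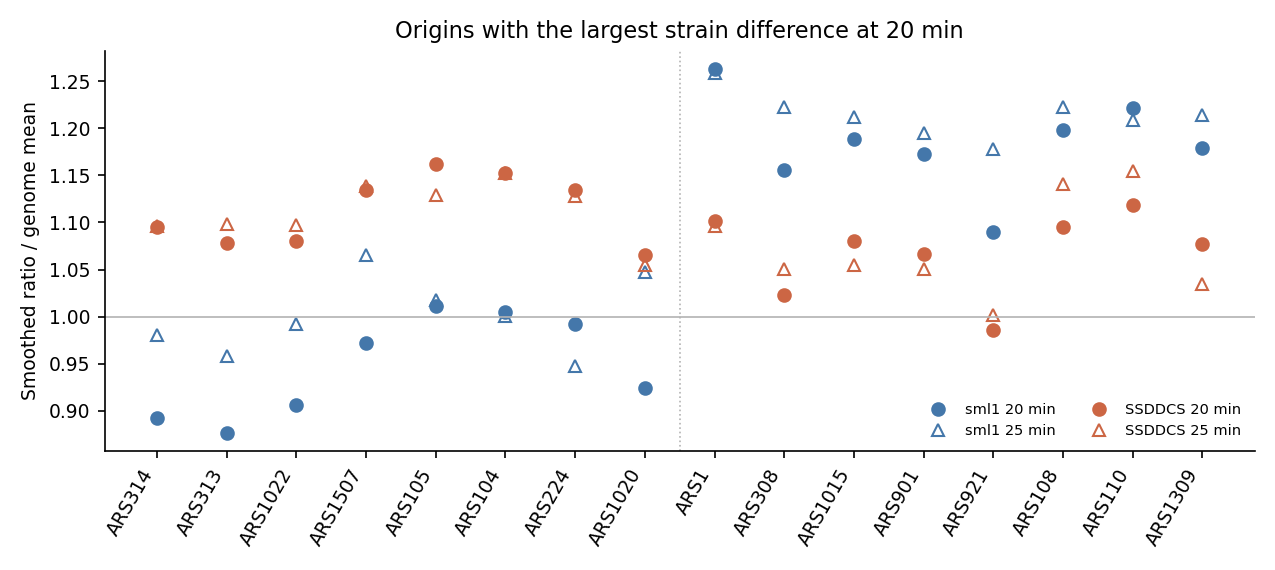
Smoothed ratio over the bulk factor (y axis, genome mean about 1) of the 8 origins with the largest rise (left of the dotted line) and the 8 with the largest fall in SSDDCS at 20 min (right), with 1 point per library. The risers had relative copy numbers of 0.88 to 1.01 in sml1 at 20 min, and the fallers 1.09 to 1.26.

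Peaks were also paired between strains within 5 kb. At 20 min 36 of 197 sml1Δ peaks (18.3%) and 62 of 223 SSDDCS peaks (27.8%) had no counterpart, and at 25 min 64 of 166 (38.6%) and 79 of 181 (43.6%) had none. At 20 min 75 of the 321 origins lay at a peak of prominence 0.1 or more in both strains, 62 only in SSDDCS and 34 only in sml1Δ. At 25 min the counts were 39, 45 and 50. Within a strain 133 of the 197 sml1Δ peaks of 20 min (67.5%) and 139 of the 223 SSDDCS peaks (62.3%) were found again within 5 kb at 25 min. The share of all bins within 5 kb of a peak was not taken, so the counts of paired peaks are descriptions without a background. Peaks present in SSDDCS at both times with none in sml1Δ at either numbered 20, of which 10 lay at an origin. The converse numbered 15, of which 8 lay at an origin.

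A peak of 1 strain alone did not always mean a higher level. The 5 most prominent of the 20 SSDDCS peaks were on chromosome IV at 432001 to 433000 and at 924001 to 925000, on chromosome II at 175001 to 176000 over MCM2, on chromosome X at 227001 to 228000 and on chromosome XV at 780001 to 781000. The first, near ARS415, was at 1.167 in sml1Δ and 1.163 in SSDDCS in relative copy number at 20 min, and the second, near ARS429, at 1.144 and 1.138. There the control was as high, but without a local maximum. At MCM2, which encodes a subunit of the replicative helicase, the levels were 0.996 and 1.148, and on chromosome XV near ARS1524 they were 0.996 and 1.123. The most prominent of the 15 sml1Δ peaks were beside ARS1 in GAL3, beside ARS731 on chromosome VII, at ARS428 in CRF1, on chromosome XI at 304001 to 305000 and near ARS1623 in SRO7. At ARS731 the peak was at 1.590 and 1.572 copies at 20 min and at 1.901 and 1.672 copies at 25 min in sml1Δ and SSDDCS.

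The tallest peak of sml1Δ at both times was in GAL3, about 2 kb from ARS1 on chromosome IV. It was at 1.729 copies at 20 min and 2.042 copies at 25 min, against 1.649 and 1.832 copies in SSDDCS, which had no peak there. ARS1 lies between TRP1 and GAL3, and the SSDDCS strain carries an insertion of Sld2 and Dpb11 at trp1. The part of that insertion in the difference was not tested. The next tallest in sml1Δ at 20 min were at ARS101 on chromosome I (1.699 copies, against 1.690 in SSDDCS) and at ARS607 on chromosome VI (1.688 against 1.687). At 25 min they were near ARS306 on chromosome III (2.034 against 1.768) and near ARS511 on chromosome V (2.008 against 1.875). The tallest in SSDDCS at 20 min were in HPF1 on chromosome XV (1.782 copies, against 1.545 in sml1Δ), at ARS1213 on chromosome XII (1.775 against 1.627) and near ARS105 on chromosome I (1.769 against 1.380). At 25 min they were on chromosome XIII at 906001 to 907000 (2.034 against 1.869), near ARS1531 on chromosome XV (1.993 against 1.753) and in GNP1 on chromosome IV (1.975 against 1.678). The peaks in HPF1 and near ARS1531 are 5 kb apart, within 1 smoothing window, so they are not separate places. Of these 6 SSDDCS peaks 5 lay 17.9 to 65.4 kb from a chromosome end, ARS1213 being the exception. The sml1Δ peaks lay 70.7 kb or more from an end. These distances were read from the peaks themselves and come close to each other. The share of all bins so near an end was not counted, so no contrast between strains is drawn from them.

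The sequences of 6 origins are shown because they mark these classes: ARS429 and ARS1524 at peaks seen only in SSDDCS, ARS1 and ARS731 at peaks seen only in sml1Δ, and ARS101 and ARS607 at the tallest sml1Δ peaks. They were taken from RefSeq (R64), plus strand, 5′ to 3′, and capitals mark the best match to the ARS consensus sequence on either strand with at most 1 mismatch. ARS731 had no such match. Their positions are chrIV:921692-921939 for ARS429 in PCF11, chrXV:783345-783563 for ARS1524, chrIV:462567-462622 for ARS1, chrVII:834491-834734 for ARS731 in PUS6, chrI:159907-160127 for ARS101 and chrVI:199395-199505 for ARS607 in RUF22. ARS1524, ARS1 and ARS101 are intergenic.
ARS429: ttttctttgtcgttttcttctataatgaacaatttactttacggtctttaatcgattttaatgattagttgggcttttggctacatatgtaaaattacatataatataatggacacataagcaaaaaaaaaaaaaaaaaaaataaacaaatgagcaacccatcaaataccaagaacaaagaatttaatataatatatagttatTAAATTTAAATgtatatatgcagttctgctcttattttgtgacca
ARS1524: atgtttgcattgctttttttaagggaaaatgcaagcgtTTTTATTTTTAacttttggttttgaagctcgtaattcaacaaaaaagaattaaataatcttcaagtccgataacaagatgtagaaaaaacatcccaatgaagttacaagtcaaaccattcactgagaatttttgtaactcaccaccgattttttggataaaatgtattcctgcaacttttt
ARS1: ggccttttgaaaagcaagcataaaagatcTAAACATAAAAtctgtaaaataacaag
ARS731: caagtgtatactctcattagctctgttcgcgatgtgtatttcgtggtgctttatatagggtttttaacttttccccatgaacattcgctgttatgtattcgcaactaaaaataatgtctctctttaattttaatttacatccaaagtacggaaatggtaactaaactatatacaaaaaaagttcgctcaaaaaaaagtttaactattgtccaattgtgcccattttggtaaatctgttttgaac
ARS101: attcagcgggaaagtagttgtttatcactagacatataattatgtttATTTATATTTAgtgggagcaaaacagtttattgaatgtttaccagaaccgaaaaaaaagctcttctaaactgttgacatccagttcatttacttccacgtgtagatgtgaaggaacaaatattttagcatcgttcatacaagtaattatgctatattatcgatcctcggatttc
ARS607: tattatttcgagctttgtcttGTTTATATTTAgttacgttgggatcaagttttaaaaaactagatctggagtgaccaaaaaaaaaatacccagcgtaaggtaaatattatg

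ARS1 and ARS101 held an exact match and the others that matched had 1 mismatch. Over windows of 250 bases, 1.57% of all 48277 windows of the genome held an exact match to the consensus on either strand and 22.8% a match with at most 1 mismatch. Of the 352 annotated origins 33.8% and 81.0% did. Exact matches were found in 31 of 75 origins at a peak of prominence 0.1 or more in both strains at 20 min (41.3%), in 14 of 34 at a peak only in sml1Δ (41.2%), in 16 of 62 at a peak only in SSDDCS (25.8%) and in 42 of 150 at no peak (28%). With 1 mismatch allowed the shares were 93.3%, 88.2%, 88.7% and 72%. A match is only a description of the letters in the window.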

How the data were processed

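Cells of both strains were sampled in G1 and after release, and their DNA was sequenced (Illumina TruSeq Nano). Per the labels and the study's methods, the authors mapped reads to sacCer3 (R64) with Bowtie2 2.2.6 and counted them in 1 kb bins. The submitters' processing notes list SAMtools 1.7.2 and bedtools 2.26.0, whereas the methods give another SAMtools version and do not name bedtools. The deposited ratio is S-phase over G1 reads of the same strain, multiplied by a bulk factor from flow cytometry, itself deposited as a ratio that is constant within a table. The tables give neither counts nor depth, which is therefore unknown, and no interval based on counts is given.

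The 22 tables were read with Python 3.11.15 (NumPy 2.4.6, pandas 2.3.3, SciPy 1.17.1). Each table was divided by its bulk factor and smoothed over 9 bins where at least 5 had a value. Peaks had a prominence of at least 0.05 and lay at least 5 kb apart. Origins, centromeres and genes came from the RefSeq annotation of R64, each read at the bin of its midpoint, and 0 bins lay outside its chromosomes. Named loci were the 8 origins that differed most in each direction, the 3 tallest peaks and 3 deepest valleys per library, the 5 most prominent peaks of 1 strain alone, and all members of lists under 10. Members, lists and rules were chosen with earlier results of these data known. The peak calling was tested on simulated profiles. Alternatives covered smoothing, prominence, denominator, base composition, chromosome ends, distances, scale and equal bulk replication.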

Additional observations from a re-analysis of the deposited data

Results flagged for a closer look

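In 5 measures the strains differed in opposite directions at 20 and 25 min. The difference between the time points was not tested, since each strain and time has 1 library. All values are SSDDCS minus sml1Δ. The SD over bins, in percent of the mean, differed by 1.30 at 20 min and by -2.60 at 25 min. The median relative peak height differed by 0.029 and by -0.025. The median peak width differed by 0.724 kb and by -10.6 kb. The median relative valley level differed by -0.015 and by 0.092. The number of peaks of prominence 0.1 or more differed by 36 and by -12. At 20 min the differences in the SD over bins, width, relative height and relative valley level were smaller than the SD of the same difference over chromosomes, which was 1.91 percentage points, 7.53 kb, 0.0408 and 0.0466.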

How the results depend on the processing

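Under 21 alternatives 28 values were recomputed, and 300 of the 368 values kept their direction and moved by less than the tolerance, which was 1 SD over chromosomes for a difference, 1.5 times for a count and the Wilson 95% interval for a share. Within that tolerance some differences still moved several-fold, as the SD at 25 min did with averaged times, from -2.60 to -0.31, and the relative peak height at 20 min, from 0.029 to 0.0025. The cause of the others was not tested beyond what each setting changes. All differences are SSDDCS minus sml1Δ.

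At 20 min 3 differences turned over. Against the control at equal bulk replication the peak width differed by -4.19 kb, the relative valley level by 0.016 and the SD by -0.42 percentage points. With the profiles of 20 and 25 min averaged these were -2.07 kb, 0.029 and -0.31, and the relative peak height at 25 min turned to 0.0025. In that average the 25 min differences in width and valley level were also nearer to 0, at -2.07 kb and 0.029, and a prominence of 0.1 gave a valley difference of 0.038.

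SSDDCS had more peaks than sml1Δ under 15 of 15 settings at 20 min and 13 of 14 at 25 min, prominence 0.1 being the exception. Some of the 25 min counts were nearly equal. SSDDCS had 135 against 134 with prominence 0.08, and 176 against 174 with a limit of 3 times the noise of each library. With smoothing over 5 bins it had 299 against 209, and with prominence 0.1 it had 116 against 128. The SSDDCS library was the noisier, and the part of noise in these counts was not tested. Peaks without a counterpart at 20 min numbered 82 in sml1Δ and 104 in SSDDCS with smoothing over 5 bins, 65 in sml1Δ when paired within 3 kb, and 13 and 39 within 10 kb. At 25 min they numbered 34 and 49 within 10 kb, 155 in SSDDCS with smoothing over 5 bins and 42 in sml1Δ with averaged times.

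The share of peaks at an origin moved with smoothing and distance. For 20 min smoothing over 5 bins gave 65.1% in sml1Δ and 64.3% in SSDDCS, with 81.0% in sml1Δ over 15 bins. It was 58.9% and 65.9% within 2 kb, 86.8% and 83.9% within 5 kb, and 79.4% in SSDDCS with the 60 min library as denominator. The 25 min shares were 54.5% and 47.8% over 5 bins, 79.9% in sml1Δ over 15 bins, 57.2% and 55.2% within 2 kb and 84.3% and 80.1% within 5 kb. It was also 76.5% in sml1Δ with averaged times, and 56.9% and 73.9% in SSDDCS with a Savitzky-Golay filter and with the 5 min library as denominator.

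Counts of bins and origins depend on scale and limit. On the deposited scale 6756 bins were higher and 113 lower at 20 min and 4575 higher at 25 min, with 251 origins higher and 0 lower at 20 min and 132 higher at 25 min. With a limit of 0.05, 2526 bins were higher and 2470 lower at 20 min and 3647 and 3815 at 25 min, with 119 and 36 origins and then 98 and 122. With 0.15 the bins were 93 and 103, then 674 and 559, and the origins 5 and 1, then 18 and 13. In relative copy number and with the limit of 0.1, smoothing over 15 bins gave 22 origins higher and 3 lower at 20 min. Equal bulk replication gave 15 lower on that scale. Averaged times gave 830 bins higher and 796 lower and 21 origins lower.

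No paired analysis was possible because there is only 1 library for a given strain and time, and for the same reason no replicate was left out. Depth is unknown, so the noise between bins is the only measure of precision within a library, and it does not hold the spread between cultures or the error of the bulk factor, which sets every value in copies.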
